A study of Mus musculus with 2 samples.

Results

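The miR-29 family is 4 miRNA genes of the 1973 in the count tables, Mir29a, Mir29b-1, Mir29b-2 and Mir29c, taken by matching each identifier without its version to these symbols in the mouse GENCODE M21 annotation of GRCm38. They were measured by microRNA sequencing in the intestine of 2 newborn pups of strain B6NCrl at postnatal day 0, called pup 1 and pup 2, with 1 library each. Per the labels, both pups came from the same pregnant female, sex was not collected, and no intestinal segment, treatment or engineered allele is named. The libraries form 1 group, so the values describe levels in newborn gut and how far littermates lay apart.

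A miRNA is a short RNA cut from a hairpin precursor. One arm of the hairpin, named 5p or 3p by its side, is loaded into Argonaute and pairs with messenger RNAs mainly through its seed, bases 2 to 8 from the 5′ end. The miR-29 family acts through its 3p arm and is known for repressing genes of the extracellular matrix, collagens and elastin among them. It is known to be repressed by TGF-beta signalling in fibroblasts and to oppose fibrosis in several organs. Its level is known to rise as many tissues mature. The mature 3p sequences are shown because they carry both what unites the family and what decides which gene a read can be assigned to. The seed is in capitals, and the sequences are RefSeq's on GRCm38.p6, where all 4 hairpins and their 8 mature arms matched by symbol.
mmu-miR-29c-3p: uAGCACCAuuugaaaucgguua
mmu-miR-29a-3p: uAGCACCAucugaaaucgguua
mmu-miR-29b-3p: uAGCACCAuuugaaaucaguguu

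The 3 sequences shared the seed AGCACCA, and no other mature mouse miRNA in the RefSeq table had it. Positions are counted from 1 at the 5′ end, with the base of the first-named miRNA given first. miR-29a-3p and miR-29c-3p are 22 bases long and differed by C10U alone. miR-29b-3p, with 23 bases, was identical to miR-29c-3p over its first 17 bases and then differed by A18G, G21U and U22A. Both Mir29b-1 and Mir29b-2 encode the same miR-29b-3p, so a read of that whole sequence matched 2 hairpins. miR-29a-3p and miR-29c-3p each matched 1 hairpin of the 1005 in the table, their own.

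The 5p arms, usually the discarded side of these hairpins, differed between all 4 genes. They are shown because they are the arms that tell the Mir29b copies apart, with bases 2 to 8 in capitals.
mmu-miR-29c-5p: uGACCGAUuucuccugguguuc
mmu-miR-29a-5p: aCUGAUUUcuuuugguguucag
mmu-miR-29b-1-5p: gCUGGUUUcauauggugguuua
mmu-miR-29b-2-5p: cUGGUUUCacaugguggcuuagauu
No 2 of these arms had the same bases 2 to 8, and the longest run shared by any 2 of them was 9 bases, between miR-29b-1-5p and miR-29b-2-5p. Each matched 1 hairpin exactly.

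The hairpins of Mir29b-1 and Mir29b-2 are given whole because of the stretch they hold in common, which is in capitals.
Mir29b-1: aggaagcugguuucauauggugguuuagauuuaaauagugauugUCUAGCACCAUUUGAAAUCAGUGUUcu
Mir29b-2: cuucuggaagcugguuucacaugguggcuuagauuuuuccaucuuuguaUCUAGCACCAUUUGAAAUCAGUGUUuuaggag
The shared run was 25 bases long and held all of miR-29b-3p with 2 bases before it. Mir29b-1 also shared a run of 22 bases with Mir29c, and Mir29b-2 one of 19, while Mir29a shared at most 14 with Mir29c and 11 with either Mir29b gene. Of all 18-base windows, 0 of 71 in Mir29a, 5 of 71 in Mir29c, 8 of 64 in Mir29b-2 and 11 of 54 in Mir29b-1 were found in another hairpin of the table. These comparisons were made among miRNA hairpins, not against the whole genome.

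**Figure D1:**
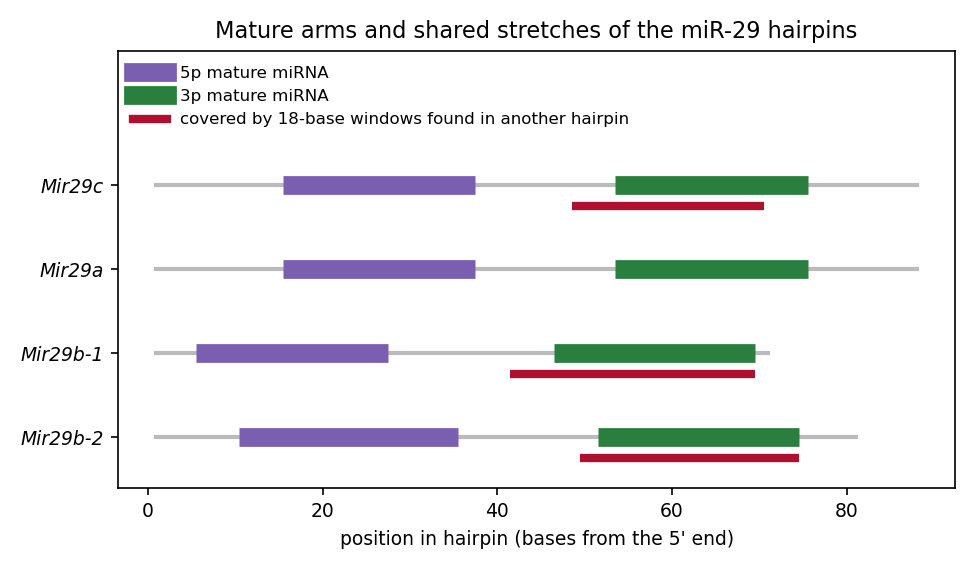
Positions of the mature arms along each miR-29 hairpin in bases from its 5′ end, with the 5p arm in purple, the 3p arm in green and, in red below, the stretch covered by 18-base windows found in another hairpin. The red stretch spans the whole 3p arm of Mir29b-1 and Mir29b-2 and part of that of Mir29c, and Mir29a has none.

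The genes lie in pairs. On GRCm38, Mir29a occupies bases 31062660 to 31062747 of chromosome 6, minus strand, and no annotated gene of that strand contains it. Mir29b-1 lies 275 bases away, from 31063023 to 31063093, and overlaps by its edge the lincRNA gene Gm27019. Mir29b-2 lies on chromosome 1 from 195037040 to 195037120 on the plus strand, and Mir29c follows after 426 bases, from 195037547 to 195037634. Both overlap an exon of the non-coding transcript gene A330023F24Rik on their own strand and lie within the span of Cd46, a complement regulator, on the other strand. Each pair is known to come from 1 primary transcript.

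Reads on the annotated strand of miRNA genes came to 3567658 in pup 1 and 4683939 in pup 2, of 6375694 and 8373497 reads in all. Levels are counts per 1000000 of these counts (CPM), not scaled by length, since the mature arms of the family are all 22 to 25 bases long. Reads that mapped to several places, 30.3% of reads in pup 1 and 29.8% in pup 2, were counted for no gene. The 9 markers fixed for intestinal epithelium were all detected, meaning at least 10 counts in each pup, and summed to 286751 and 333027 CPM in pup 1 and pup 2. Smooth muscle Mir143 and Mir145a summed to 181056 and 150129 CPM, endothelial Mir126a had 54634 and 49791, and 3 of 4 mesenchymal markers were detected with a sum of 2157 and 1925. Sums were 347 and 355 CPM for striated muscle, 473 and 519 for leukocytes (3 of 4 markers found in the tables), 100.1 and 146 for erythroid cells, 1071 and 1035 for neural tissue, 28.9 and 12.4 for liver and 0.561 and 1.07 for pancreas. The neural sum came from 1 detected marker of the 6 found, and Mir124a-1, Mir124a-2, Mir124a-3 and Mir9-2 were at 0. Marker sums leave out reads that mapped to several places, so a gene at 0 is not taken here as an absent mature miRNA. In whole tissue, fewer cells of a type and less miRNA per cell cannot be told apart, and which cells held the miR-29 counts was not tested.

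In newborn intestine, by reads assigned to 1 gene, Mir29c and Mir29a were present at moderate and similar levels. By the same reads, Mir29b-1 and Mir29b-2 were at a few counts or none. The family held 1358 counts in pup 1 and 1842 in pup 2, which is 0.0387% ± 0.000892 of miRNA counts (SD, n = 2). Reads that match both Mir29b hairpins were counted for no gene, so neither the counts nor the share holds them. The exact 95% intervals of this share were 0.0361% to 0.0401% in pup 1 and 0.0376% to 0.0412% in pup 2, and they overlap. Intervals here and below are exact binomial, so they treat reads as independent and leave out the spread between animals. These reads carry no molecular identifiers and are not independent, so the intervals can be too narrow even for counting error. The exact binomial p-values below share this limit, and all p-values rest on 2 littermates.

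Mir29c had 708 counts in pup 1 and 1009 in pup 2, or 198 CPM (184 to 214) and 215 CPM (202 to 229). Its mean was 207 ± 12.0 CPM (SD, n = 2). Among reads assigned to 1 gene, it was the highest of the family in both pups. It held 52.1% of the family's counts in pup 1 and 54.8% in pup 2, which leave out reads that match both Mir29b hairpins.

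Mir29a had 649 counts in pup 1 and 818 in pup 2, or 182 CPM (168 to 196) and 175 CPM (163 to 187), with a mean of 178 ± 5.14 CPM. It held 47.8% and 44.4% of the family's counts in pup 1 and pup 2. Between the pups the coefficient of variation came to 2.88% for Mir29a and 5.80% for Mir29c, against a median of 8.83% over the 314 genes detected in both pups.

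Mir29b-1 had 1 count in pup 1 and 9 in pup 2, or 0.280 CPM (0.00710 to 1.56) and 1.92 CPM (0.879 to 3.65). Mir29b-2 had 0 counts in pup 1 and 6 in pup 2. The limit of 3 counts for the 0 in pup 1 is 0.841 CPM, with an exact 95% upper limit of 1.03 CPM, and the 6 counts in pup 2 are 1.28 CPM (0.470 to 2.79). Neither gene reached 10 counts in a library, so 2 of the 4 members were below the minimum used for testing. The sequence of miR-29b-3p is the same at both loci, and multi-mapped reads were counted for no gene. How many such reads there were for miR-29b is not in the tables, so these counts are not taken here as the level of mature miR-29b.

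**Figure D2:**
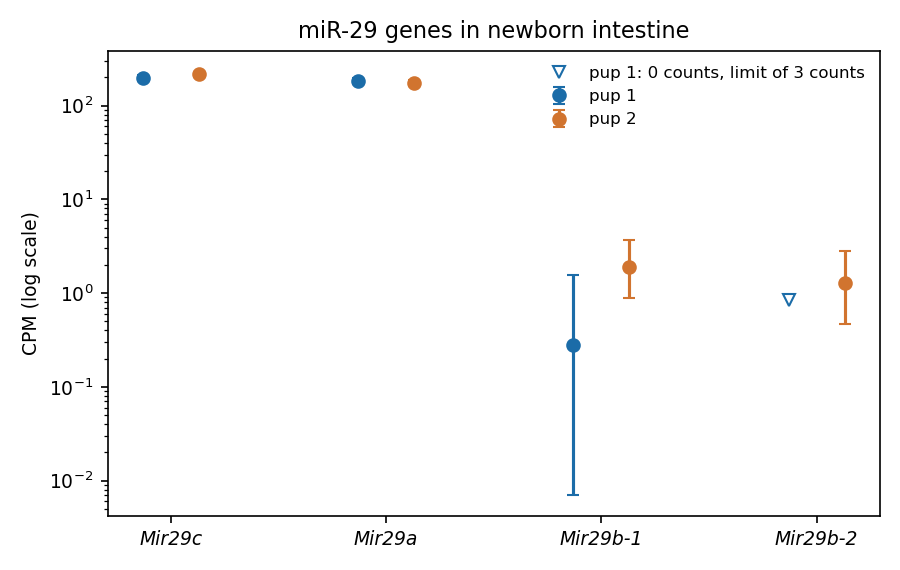
Level of each miR-29 gene in CPM on a log scale, with pup 1 in blue and pup 2 in orange; points are the measured values, bars exact 95% intervals, and the open triangle the limit that 0 counts of Mir29b-2 allow in pup 1. Mir29c and Mir29a lie between 175 and 215 CPM in both pups, and Mir29b-1 and Mir29b-2 lie below 2 CPM.

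Genes with a shared arm were not uniformly low. In the tables, 50 genes, Mir29b-1 and Mir29b-2 among them, had 1 mature arm found in another hairpin and another arm that was not. Of these, 35 were detected (70.0%), with a median of 17.0 CPM over all 50, and 12 of the 50 stood at or below Mir29b-1. All 50 have 2 annotated arms. Among genes that also have 2, 205 of 513 with no shared arm were detected (40.0%), and 3 of 19 with both arms shared (15.8%). These classes were matched in number of arms only and take no account of which arm gives most of a gene's reads. How far the multi-mapped reads set the Mir29b counts was not tested.

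Among all genes Mir29c ranked 141 and Mir29a 146 by mean CPM, near the middle of the 314 detected genes, whose median was 145 CPM. Of the detected genes, 55.1% were below Mir29c and 53.5% below Mir29a. By mean CPM, the genes next to Mir29c were Mir181b-2 above it, at 209 ± 57.7 CPM, and Mir32 below it, at 204 ± 17.5 CPM. The genes next to Mir29a were Mir496a (180 ± 17.3 CPM) above and Mir329 (173 ± 1.49 CPM) below, both of chromosome 12. The log2 difference in mean CPM from their miR-29 neighbour was at most 0.042 for these 4 genes. In each case the means differed by less than the larger SD of the 2 genes, so the order within this stretch is not resolved by 2 libraries. Mir29b-1 ranked 379, beside Mir7085 above it and Mir9-3, whose counts of 1 and 9 in pup 1 and pup 2 equalled its own. Mir29b-2 ranked 429, between Mir5116 and Mir1191, with 4 and 1, and 3 and 2 counts in pup 1 and pup 2. Likeness here is in level alone, over 2 samples.

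**Figure D3:**
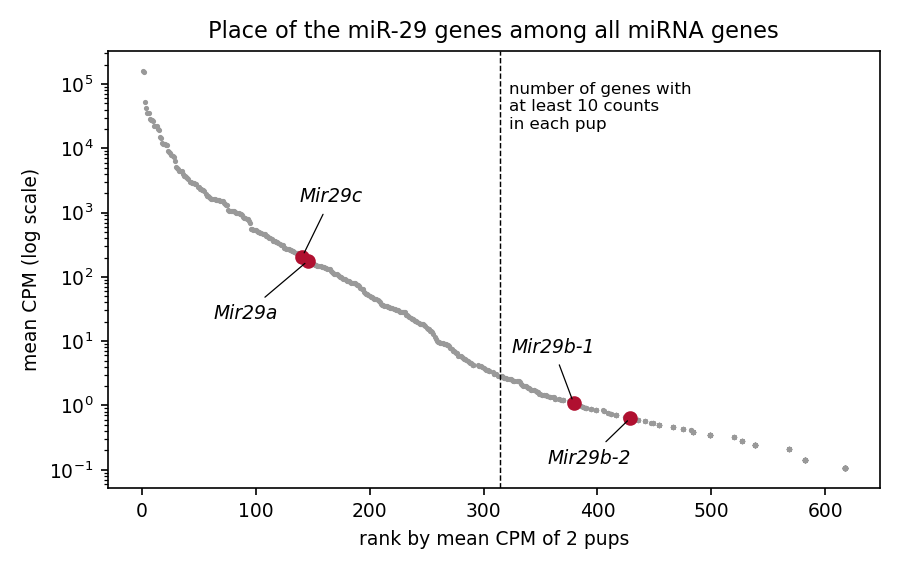
Mean CPM of 2 pups on a log scale against rank for all miRNA genes with a count in either pup, with the miR-29 genes in red and a dashed line at the number of genes with at least 10 counts in each pup (314). Mir29c and Mir29a sit together at ranks 141 and 146, and Mir29b-1 and Mir29b-2 sit right of the line at 379 and 429.

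Within libraries, Mir29c and Mir29a differed little. Mir29c over Mir29a was 1.09 in pup 1 (0.979 to 1.22) and 1.23 in pup 2 (1.12 to 1.35), so the interval held 1 in pup 1 and lay above 1 in pup 2. The mean log2 ratio was 0.21 ± 0.13 (SD, n = 2). It did not pass edgeR's quasi-likelihood test, in which the pup was a block and p was adjusted by Benjamini-Hochberg over the 6 pairs of members (adjusted p = 0.339). The chromosome 1 pair summed together, Mir29b-2 with Mir29c, over the chromosome 6 pair, Mir29a with Mir29b-1, was 1.09 in pup 1 (0.978 to 1.21) and 1.23 in pup 2 (1.12 to 1.35). The Mir29b genes added at most 9 counts to a sum, so this is nearly the ratio of Mir29c over Mir29a again. Reads that match both Mir29b hairpins are in neither sum, so the whole output of the 2 pairs is not compared.

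Within each genomic pair the counts were far from equal. On chromosome 1, Mir29c was at least 236-fold higher than Mir29b-2 in pup 1 when Mir29b-2 is set at the limit of 3 counts per library (exact 95% lower limit 191), and 168-fold higher in pup 2 (77.0 to 459). On chromosome 6, Mir29a over Mir29b-1 was 649 in pup 1 (116 to 25673), from 649 counts over 1, and 90.9 in pup 2 (47.6 to 199). Across chromosomes, Mir29c over Mir29b-1 was 708 in pup 1 (127 to 28004) and 112 in pup 2 (58.8 to 246), and Mir29a over Mir29b-2 was at least 216 in pup 1 at the same limit of 3 counts (exact 95% lower limit 175) and 136 in pup 2 (62.4 to 373). All 8 of these ratios lay above 1, intervals included. Each has in its denominator a Mir29b gene, whose mature 3p sequence matches 2 hairpins. Mir29b-1 and Mir29b-2, with 9 counts and 6 in pup 2, had a ratio whose interval was 0.477 to 5.12, and they have no ratio in pup 1.

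**Figure D4:**
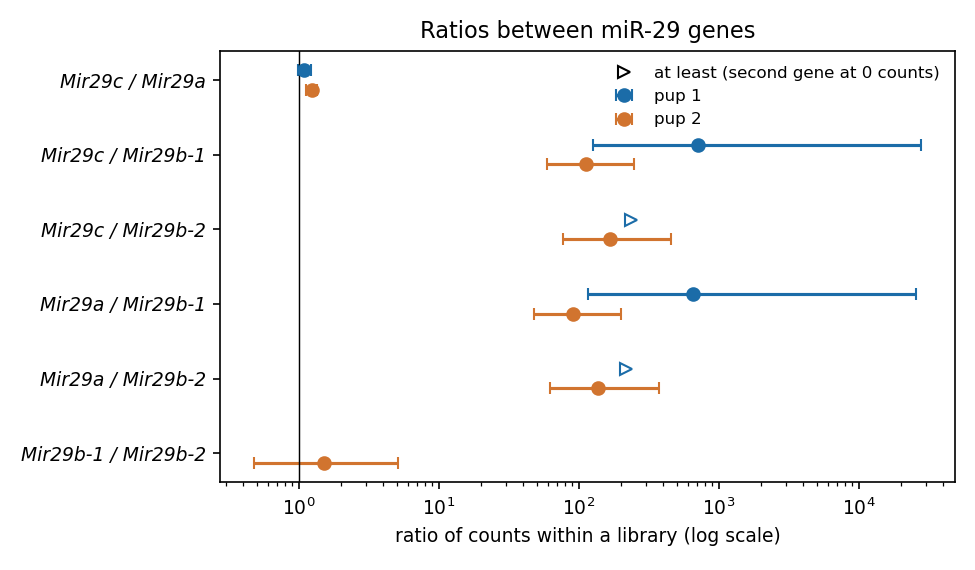
Ratio of counts between miR-29 genes within each library on a log scale, with pup 1 in blue and pup 2 in orange; bars are exact 95% intervals and open triangles are lower limits where the second gene had 0 counts. Mir29c over Mir29a lies at 1.09 and 1.23, and the ratios of Mir29c or Mir29a over a Mir29b gene lie from 90.9 upwards.

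The pair test did not call these ratios when fitted to the family alone. Of 6 pairs, 0 passed edgeR's quasi-likelihood test after adjustment and 2 had an unadjusted p under 0.05, with adjusted p = 0.106 for Mir29c over either Mir29b gene and 0.237 for Mir29a over either (edgeR). With only 6 rows of 4 values the estimated common dispersion was 0.517. Each member's counts recur in several rows, so the rows are not independent, though the fits and the adjustment of p treat them as separate. In an alternative chosen after the data were seen, 99 pairs of neighbouring detected miRNA genes were added to inform the spread. The common dispersion was then 0.00689, and 4 of the 6 passed, those over Mir29b-1 or Mir29b-2, with edgeR adjusted p from 0.000190 to 0.000277. All added genes had at least 10 counts in each library and neither Mir29b gene did, so that dispersion may not hold for the pairs with a Mir29b gene. DESeq2 and limma-voom on the 6 pairs called 4 as well. In that larger edgeR fit 92.9% of the neighbouring pairs were called, so unequal counts between neighbouring miRNA genes were common in these libraries. Mir29c over Mir29a did not pass in that fit (adjusted p = 0.115, edgeR). Such ratios also hold any difference in capture between sequences, which both pups share.

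Between the littermates neither of the members that could be tested passed. Mir29a was 1.01-fold in pup 1 over pup 2 (0.911 to 1.12), a log2 ratio of 0.016 (adjusted p = 0.918). The test was exact binomial, 2-sided, and took the expected share from TMM-scaled library sizes. The sign of Mir29a turned, to a log2 ratio of -0.026, with upper-quartile scaling. Mir29c was 0.894-fold (0.811 to 0.985), a log2 ratio of -0.16, and did not pass after Benjamini-Hochberg adjustment over 314 genes (exact binomial, unadjusted p = 0.0237, adjusted p = 0.0565). It passed with upper-quartile scaling, where the log2 ratio was -0.20 (adjusted p = 0.0117, exact binomial) and 130 of 314 genes were called. With a minimum of 100 counts it passed too (adjusted p = 0.0348, exact binomial), where 126 of 227 genes were called. With total-count scaling its adjusted p reached 0.197 (exact binomial). So 0 of the 2 members tested were called, where 41.1% of the 314 genes were, and 1 had an unadjusted p under 0.05. With a fold interval beyond 1.5 either way, 0 members and 1.59% of genes were called. This test compares 2 libraries and holds no replicate of either animal.

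**Figure D5:**
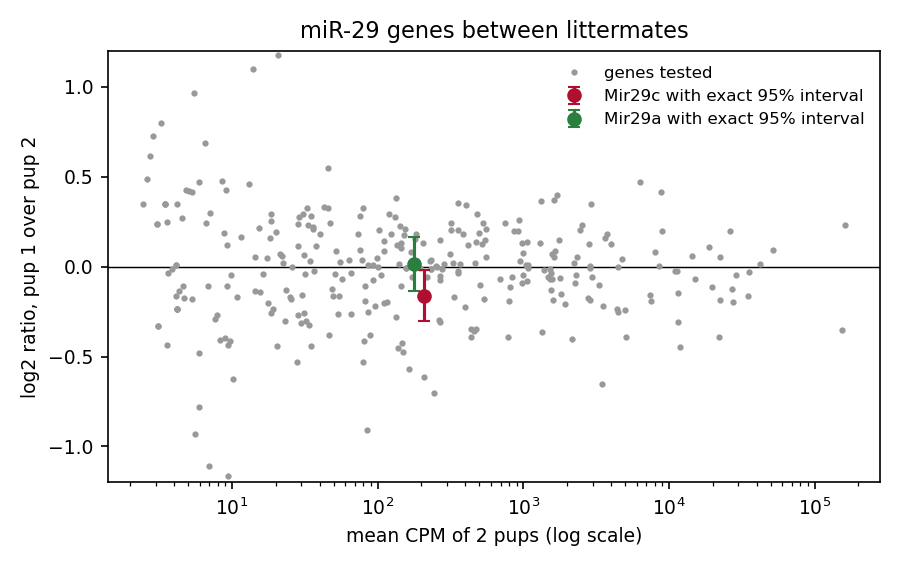
Log2 ratio of pup 1 over pup 2 against mean CPM on a log scale for the 314 genes tested, with Mir29c in red and Mir29a in green, their bars being exact 95% intervals; 2 genes lie outside the plotted range. The bar of Mir29a spans 0, and that of Mir29c lies just below 0.

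The Mir29b genes were both lower in pup 1 than in pup 2 at the level of single reads. Over any gene with a count, 120 of 672 genes were called between the pups, and neither Mir29b gene was. Mir29b-1 was 0.143-fold in pup 1 over pup 2 (0.00325 to 1.03, adjusted p = 0.217, exact binomial). Mir29b-2, with 0 counts and 6, had an interval of 0 to 1.09 (adjusted p = 0.178, exact binomial). Summed, they held 1 count in pup 1 and 15 in pup 2, or 0.280 CPM (0.00710 to 1.56) and 3.20 CPM (1.79 to 5.28). These intervals do not overlap, but the sum was chosen after the counts were seen and was given no test. Reads on the strand opposite to the hairpin were 0 for all 4 members in both pups, so ignoring strand left every member's count as it was.

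The other miRNAs linked to matrix and TGF-beta signalling give the setting. By reads assigned to 1 gene, 13 of 20 such genes stood above Mir29c and 7 below Mir29a, with a list median of 2320 CPM. Together they took 18.1% ± 0.963 of counts. Multi-mapped reads enter none of these values. A low place, such as the 0 of Mir133a-1 and Mir133a-2 in both pups, is therefore not taken as a low mature level. The 4 highest were Mir429 (35301 ± 173 CPM), of the miR-200 family that keeps epithelium from turning mesenchymal, Mir21a (34700 ± 2018), which is induced by TGF-beta and promotes fibrosis, Mir192 (28894 ± 94.0), an epithelial miRNA of the gut, and Mir200b (27514 ± 2056), also of the miR-200 family. Of these 20 genes 16 were tested between the pups, with 2 higher and 10 lower in pup 1 by the exact binomial test and 4 that did not pass, against 41.1% of all genes called. This test calls smaller differences at higher counts, and Mir429 passed at a log2 ratio of -0.033. The list's median of 2320 CPM is above the 145 CPM of all detected genes, so the 2 shares of calls are not like for like. The list's median log2 ratio, pup 1 over pup 2, was -0.17, beside -0.0022 over all genes tested. With total-count scaling 2 were higher and 8 lower. The epithelial marker sum, which holds 6 of the same genes, was also lower in pup 1, 286751 against 333027 CPM in pup 2, and its part in these values was not tested.

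The seed of the family ties it to matrix genes through short matches in their 3′ untranslated regions. The reverse complement of seed bases 2 to 8, TGGTGCT, was searched on the messenger strand of the longest annotated 3′ untranslated region of each protein-coding gene (GENCODE M21). It was found in 13.1% of 21045 regions, and 2 or more times in 2.03%. Of 10 matrix genes picked as known or likely miR-29 targets, 8 held it and 4 held it at least 2 times, with a median region length of 1137 bases against 960 over all. Since the genes were picked for that knowledge, the count describes them and tests nothing. Col5a1 held 4 matches, Eln 3, and Fbn1 and Col4a2 2 each. Among regions within 10% of its length, the gene's own included, 0.214% of 1402 held at least as many as Eln, the gene of elastin. For Col5a1 it was 0.0770% of 1299, which is its own region alone. Col1a1 and Col3a1, of the fibrillar collagens I and III, held 1 each, where 13.3% and 10.1% of regions of like length held at least 1. Col1a2 and Sparc held none in that region, which says nothing of sites elsewhere. The matches of Col1a1, Col3a1 and the first of Eln are shown on GRCm38, with the match in capitals, because these genes make the main fibres of the gut wall.
Col1a1: gaaggaatttcTGGTGCTata
Col3a1: aaatgtctcaaTGGTGCTata
Eln: ctcatcaacgtTGGTGCTact
These 3 matches are followed by an A, the base across from the first base of the miRNA, as are 9 of the 15 matches in the 10 genes. The messenger RNAs of these genes were not measured here.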

How the data were processed

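The authors deposited raw read counts per miRNA gene, 1 table per library, made against mm10 with GENCODE M4, per the README text deposited beside each table; aligner and counter: not given in the sources used here. Of 3 count columns, which from their sums hold either strand, annotated strand and opposite strand, the annotated strand was used. Totals of reads of no gene stayed out of library sizes. Of 1973 identifiers, 1894 matched GENCODE M21; the other 79 held 0 counts. Tests used R 4.3.3, edgeR 4.0.16, DESeq2 1.42.0, limma 3.58.1 and scipy 1.17.1, at a threshold of 0.05. Genes with at least 10 counts in each library were compared between pups. Pairs were fitted with library totals as offsets; the list of further pairs planned for that fit was not used here, so the 6 pairs of members stood alone. Matches to the genome sequence were not analysed here. Alternatives were other scalings, count minimums and denominators, strand ignored, other tools, no pup block and each pup left out. Scripts were tested on simulated data. The text names the 4 members, the gene next above and below each in mean CPM and the 4 highest of the matrix list; matrix messenger genes were chosen last. The members and lists were chosen with earlier results of these data known.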

Additional observations from a re-analysis of the deposited data

How the results depend on the processing

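The family's share of 0.0387% was 0.0216% with all reads as the denominator, 0.0374% with strand ignored and 0.0565% without Mir143 and Mir215 in the denominator, and 0.0381% to 0.0393% with either pup left out. The members that differed between pups numbered 0, and 1 (Mir29c) with upper-quartile scaling and with a minimum of 100 counts; the log2 ratio of Mir29a, pup 1 over pup 2, was 0.016 with TMM and turned to -0.026 with upper-quartile scaling. Over all genes 129 of 314 tested were called, and 127 to 130 of 314 with the other scalings. The number tested changed in the other alternatives. There 120 of 672 were called over any gene with a count, 126 of 227 with a minimum of 100 counts and 136 of 324 with strand ignored. The share of genes called thus moved with the count minimum. Of the 6 pairs 0 were called with the pup as a block, 5 with no replicate block, where Mir29c over Mir29a also passed (edgeR adjusted p = 0.0402), and 4 with DESeq2, with limma-voom and with neighbouring pairs added. The log2 ratio of Mir29c over Mir29a was 0.13 to 0.30 with either pup left out. Among the members, depth weighs most on Mir29b-1 and Mir29b-2, where a single count is worth 0.280 CPM in pup 1 and 0.213 in pup 2. Reads that match both Mir29b hairpins were counted for no gene, which greater depth would not change.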
